A study of Mus musculus with 16 samples.

Results

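The acute phase and antimicrobial epithelial genes were taken by symbol: Saa1, Saa2, Saa3, Lcn2, S100a8, S100a9, Slpi, C3, Vnn1 and Ltf, 10 of the 24421 genes in each tumour table and 10 of the 51912 entries in the table of normal tissues. All 10 were found in both kinds of table, and they were chosen with their values in these libraries known, the list having been selected on their CPM per library in all groups, so their levels, and the calls of the fit across all genes given for them, are a description without p-values. Polyadenylated RNA was sequenced from 16 libraries of C57BL/6 mouse organoids, which are cell cultures grown in 3 dimensions, in a study that compared tumours with and without LMP1, the latent membrane oncoprotein encoded by Epstein-Barr virus, and normal tissues. Lung-LMP1 (n = 3) and LMP1 (n = 2) were tumour organoids of the TMPL genotype, which is Trp53-/-, Myc and sgCdkn2a with LMP1 added. Lung-Ctr (n = 2) and Ctr (n = 3) were tumour organoids of the TMP genotype, which is Trp53-/-, Myc and sgCdkn2a without LMP1, so all 4 tumour groups share the Trp53-/- genotype, Myc and the guide against Cdkn2a. Tumours grew in recipient mice after transplantation into the nasopharynx. Normal_nasopha (n = 3) and Normal_lung (n = 3) were organoids of the untransformed tissues. The labels give no age, promoter or number of clones, and do not say whether replicates came from separate animals or cultures, so any p-value measures only the spread between these libraries, which may be technical. In the design text both genotypes have primary and metastasized tumours, but at sample level TMP is always labelled primary and TMPL always metastasis. Group names here follow the sample titles, without reading the Lung prefix as where a tumour grew.

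Total counts ran from 12535166 to 21737184 per library. Levels are CPM, counts as a share of the library total on the usual scale, adjusted with TMM factors, which correct for differences in library composition, and 3 counts in 1 library are taken as the floor of detection. A further 3 columns, here the normal comparator, stand beside Ctr in the deposited comparison with normal nasopharynx but are headed as normal lung. Across 22585 genes each of them correlated most closely with the Normal_nasopha library of the same number (Pearson r of log2(CPM + 1) 0.980 to 0.981, against 0.883 to 0.891 with Normal_lung), and where the member had at least 10 counts there (24 values) their counts were 73.3% to 97.6% of those in that library, so they were not counted as additional replicates. Some other genes were counted differently in the 2 kinds of table, for example Cebpb with 10855 counts in the comparator and 6412 in Normal_nasopha, so levels are compared only within a table. Summed alveolar markers reached 125 to 291 CPM in Normal_nasopha and 71829 to 76903 CPM in Normal_lung, the order that the tissue labels give. The 12 epithelial markers were above the floor in every group.

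Acute phase proteins are secreted when injury or infection raises cytokines such as interleukin 6 and interleukin 1, chiefly by the liver but also by epithelia that face the outside. The cytokine signals act through STAT3, NF-kappa-B and the C/EBP family of transcription factors, and the products bind lipid, iron or bacteria, inhibit proteases or mark particles for uptake. Neutrophils carry several of the same proteins, in particular S100a8, S100a9, Lcn2 and Ltf, so these genes in a mixed sample can come from either cell type.

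Positions are of principal transcripts (GENCODE vM21, GRCm38). The serum amyloid A genes, lipoprotein-associated acute phase proteins, form a cluster on chromosome 7: Saa3 (chr7:46711998-46715700, minus strand, 4 exons), Saa1 (chr7:46740497-46742980, minus strand, 4 exons) and Saa2 (chr7:46751790-46754313, plus strand, 4 exons). S100a8 (chr3:90668978-90670035, plus strand, 3 exons) and S100a9 (chr3:90692632-90695721, minus strand, 3 exons), whose proteins pair as calprotectin, a metal-binding antimicrobial complex, lie 22.6 kb apart. Lcn2 (chr2:32384633-32387797, minus strand, 6 exons) encodes lipocalin 2, which binds bacterial siderophores, and Ltf (chr9:111019292-111042767, plus strand, 17 exons) encodes lactoferrin, an iron-binding protein of secretions. Slpi (chr2:164354070-164356507, minus strand, 4 exons) encodes a secreted inhibitor of leukocyte proteases. C3 (chr17:57203970-57228136, minus strand, 41 exons) encodes the central component of complement. Vnn1 (chr10:23894688-23905343, plus strand, 7 exons) encodes the pantetheinase vanin 1, which releases vitamin B5 and cysteamine.

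Promoter windows from 250 bases before to 50 bases after the annotated start were taken from RefSeq (GRCm38.p6) for 9 of the 10 genes, all but Vnn1. The RefSeq starts of Saa2, Saa3, Lcn2 and S100a8 differ from the GENCODE starts given above. For these genes part of the bases before the RefSeq start lies within the transcript positions above. All distances here are counted from the RefSeq start. The C/EBP letters TTGCNNAA, searched on both strands, were present in 8 of these 9 windows and absent in that of S100a8, while 3547 of all 32851 promoter windows in the table (10.8%) held them. The STAT letters TTCNNNGAA were found in 0 of the 9 windows (8.30% of all windows) and the kappa-B consensus, searched on both strands, in 0 of 9 (4.51% of all). These motifs were chosen with the results known, a match is a run of letters and not a measured binding site, and no match overlapped another motif. The stretch around the letters is shown for 5 genes, each 5′ to 3′ on the gene's own strand with the matched letters in capitals, since the C/EBP genes are among the regulators measured in these libraries: Saa1 chr7:46743144-46743173 (minus strand), Saa2 chr7:46751639-46751668 (plus strand), S100a9 chr3:90695939-90695968 (minus strand), Slpi chr2:164356730-164356757 (minus strand) and Ltf chr9:111019206-111019235 (plus strand).
Saa1: ctgtgctcccaTTGCACAAtgagggagaat
Saa2: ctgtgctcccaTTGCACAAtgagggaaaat
S100a9: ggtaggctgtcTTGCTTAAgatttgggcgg
Slpi: gaatttgtaTTGAGCAAtaggttagagt
Ltf: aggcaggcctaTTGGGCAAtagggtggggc
The match began 182 bases before the start of Saa1, 183 before Saa2, 236 before S100a9, 241 before Slpi and 75 before Ltf. Saa1 and Saa2 hold the same matched letters, and their windows were identical at 95.3% of aligned positions (287 of 301), whereas Saa3 matched Saa1 at 50.9% and Saa2 at 50.2%. For the 3 genes with the highest mean CPM in LMP1, Lcn2, C3 and Saa3, the 250 bases before the RefSeq start are shown in full, with the C/EBP letters in capitals: Saa3 chr7:46715677-46715926, Lcn2 chr2:32387740-32387989 and C3 chr17:57228137-57228386, all on the minus strand.
Saa3: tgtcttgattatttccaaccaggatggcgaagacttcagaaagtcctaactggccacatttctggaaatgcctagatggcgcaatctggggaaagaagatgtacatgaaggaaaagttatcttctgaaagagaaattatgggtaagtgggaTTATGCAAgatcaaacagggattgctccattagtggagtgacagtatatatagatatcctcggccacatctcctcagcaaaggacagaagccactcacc
Lcn2: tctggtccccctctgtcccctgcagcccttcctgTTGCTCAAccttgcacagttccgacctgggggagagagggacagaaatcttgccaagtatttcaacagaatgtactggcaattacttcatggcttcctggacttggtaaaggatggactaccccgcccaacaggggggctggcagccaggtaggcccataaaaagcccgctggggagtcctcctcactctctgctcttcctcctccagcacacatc
C3: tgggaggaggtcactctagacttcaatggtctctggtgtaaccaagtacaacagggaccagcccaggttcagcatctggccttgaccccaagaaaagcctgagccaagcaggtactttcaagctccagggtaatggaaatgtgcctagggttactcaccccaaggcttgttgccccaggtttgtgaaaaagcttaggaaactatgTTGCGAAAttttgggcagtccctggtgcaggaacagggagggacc
Here the match began 99 bases before the start of Saa3, 216 before Lcn2 and 45 before C3.

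Serum amyloid A3 was high in LMP1 and near the floor in most other tumour libraries. Saa3, the form made outside the liver in mice, had 0.144, 0.379 and 0.165 CPM in Lung-LMP1, 257 and 320.4 CPM in LMP1, 1.39 and 0 CPM in Lung-Ctr and 0.346, 63.2 and 0.897 CPM in Ctr. Both LMP1 libraries lay above all 8 other tumour libraries, and among those Ctr replicate 2 stood apart, with 926 of the 944 Saa3 counts of the Ctr group. In the fit across all genes the log2 fold change of Saa3 was 3.69 ± 1.61 (SE) for LMP1 against Ctr, which was not called at an adjusted p under 0.05; without Ctr replicate 2 it was 8.80 and was called. Lung-LMP1 against LMP1 gave -10.16 ± 2.27, a 1259-fold lower mean level, and was called. The Lung-LMP1 level rested on 2, 6 and 2 counts, so the size of this ratio is uncertain. Lung-LMP1 against Lung-Ctr gave -1.51 ± 2.68, which turned to 4.87 without Lung-Ctr replicate 1, and was called in neither case. Lung-Ctr against Ctr gave -4.95 ± 2.15, against 0.15 without Ctr replicate 2, and neither value was called.

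Saa1 and Saa2 stayed far below Saa3 even in LMP1, where Saa1 was near the floor and Saa2 above it. Saa2 was counted 0, 2 and 0 times in Lung-LMP1, 26 and 30 times in LMP1, 0 times in Lung-Ctr and 0, 2 and 1 times in Ctr. Both LMP1 libraries stood above all other tumour libraries. Pooled over each group and divided by the scaled library sizes, the Saa2 counts (56 in LMP1 and 3 in Ctr) gave a level 24.3-fold higher in LMP1 than in Ctr, with a 95% counting interval of 7.90 to 121. Saa1 was counted 7 and 6 times in LMP1 and 0 times in the 8 other tumour libraries; against a floor of 3 counts over the Ctr group its level in LMP1 was at least 5.64-fold higher. Of the counts of Saa1 and Saa2 together, Saa1 held 21.2% of 33 counts (95% interval 8.98 to 38.9) and 16.7% of 36 counts (95% interval 6.37 to 32.8) in the LMP1 libraries. In Normal_lung it held 70.0% of 10 counts (95% interval 34.8 to 93.3), 92.9% of 14 counts (95% interval 66.1 to 99.8) and 83.3% of 12 counts (95% interval 51.6 to 97.9). Reads shared between the Saa genes can be split or lost in counting, so each value is uncertain, and intervals cover counting error only.

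Lipocalin 2 was the gene of the 10 with the highest level in LMP1. Lcn2 had 19.5, 216 and 44.3 CPM in Lung-LMP1, 1547 and 1916 CPM in LMP1, 15.9 and 6.19 CPM in Lung-Ctr and 203, 305 and 40.5 CPM in Ctr. The 2 LMP1 libraries were the highest of the 10 tumour libraries, and Lung-LMP1 did not overlap Lung-Ctr, though Lung-LMP1 replicate 2 lay far above the other two. The mean was 9.47-fold higher in LMP1 than in Ctr (log2 3.19 ± 1.03, not called) and 18.6-fold lower in Lung-LMP1 than in LMP1 (log2 -4.17 ± 1.07, called). Lung-LMP1 was 8.45-fold above Lung-Ctr (log2 3.07 ± 1.17, not called), and 1.51 on the log2 scale without Lung-LMP1 replicate 2. Lung-Ctr was 16.6-fold below Ctr without overlap (log2 -4.06 ± 1.23, not called). DESeq2 on the same design, and edgeR with only the groups compared, called Lcn2 higher in LMP1 than in Ctr.

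The second iron-binding protein did not follow lipocalin 2. Ltf had 199.7, 176 and 82.0 CPM in Lung-LMP1, 18.3 and 48.9 CPM in LMP1, 52.7 and 19.5 CPM in Lung-Ctr and 154, 863 and 14.3 CPM in Ctr. Its highest tumour library was Ctr replicate 2, and LMP1 overlapped Ctr. Lung-LMP1 exceeded both LMP1 libraries and both Lung-Ctr libraries, by 4.54-fold and 4.23-fold in the mean, and neither difference was called (log2 2.23 ± 1.33 against LMP1 and 2.07 ± 1.32 against Lung-Ctr), though the first was called when only the groups compared were fitted. For LMP1 against Ctr the log2 fold change was -3.41 ± 1.42, which edgeR did not call and DESeq2 called lower.

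Calprotectin genes were scarce in the tumour organoids. S100a8 had 0.287, 0 and 0 CPM in Lung-LMP1, 0.816 and 1.78 CPM in LMP1, 0 and 0.263 CPM in Lung-Ctr and 0.346, 0.205 and 0.207 CPM in Ctr, and S100a9 did not exceed 0.575 CPM in any tumour library. Both LMP1 libraries had more S100a8 counts (15 and 27) than any other tumour library, where the highest count was 5, and the log2 fold change of 2.27 ± 1.22 against Ctr was not called. S100a8 made up all 15 counts (95% interval 78.2 and above) and 93.1% of 29 counts (95% interval 77.2 to 99.2) of S100a8 and S100a9 in the LMP1 libraries. The share was 13.6% of 258 counts (95% interval 9.63 to 18.4), 38.0% of 150 counts (95% interval 30.2 to 46.3) and 33.3% of 673 counts (95% interval 29.7 to 37.0) in Normal_nasopha, against 94.9% of 273 counts (95% interval 91.5 to 97.2), all 120 counts (95% interval 97.0 and above) and 96.5% of 202 counts (95% interval 93.0 to 98.6) in Normal_lung. The 2 normal tissues did not overlap in this share. In Lung-LMP1 replicate 1, the other tumour library with at least 10 such counts, it was 33.3% of 12 counts (95% interval 9.92 to 65.1).

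**Figure D1:**
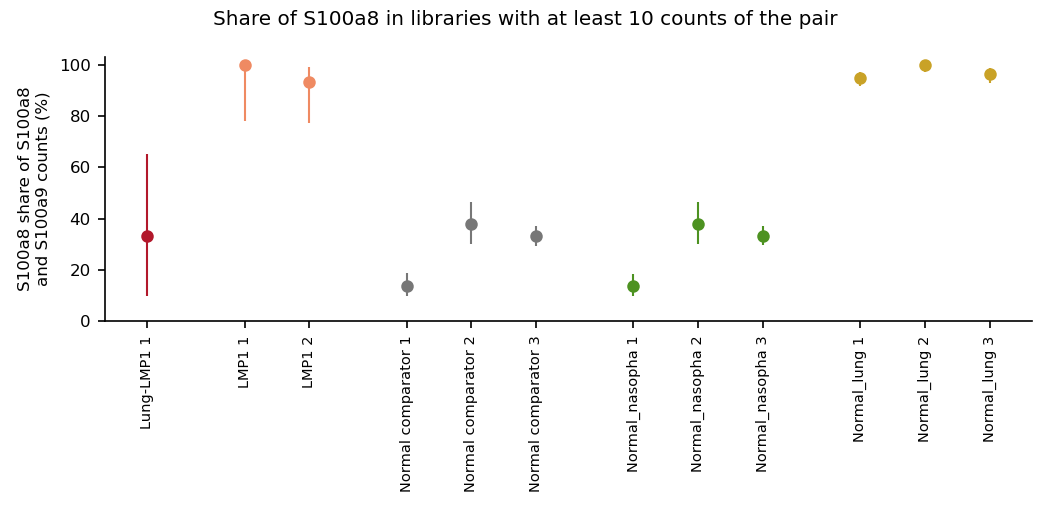
Share of S100a8 in the summed counts of S100a8 and S100a9 (vertical axis, percent) in each library with at least 10 such counts (horizontal axis); points are shares and bars exact 95% binomial intervals. LMP1 and Normal_lung libraries lie above 90%, and Normal_nasopha, the normal comparator and the 1 Lung-LMP1 library shown (33.3%) below 40%.

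Vanin 1 was lowest in LMP1, the tumour group in which Saa3 and Lcn2 were highest. Vnn1 had 14.6, 16.2 and 6.86 CPM in Lung-LMP1, 0.109 and 0.198 CPM in LMP1, 3.97 and 0.724 CPM in Lung-Ctr and 36.9, 16.5 and 5.10 CPM in Ctr. LMP1 was the lowest group, with 2 and 3 counts, and did not overlap any other tumour library. The mean was 127-fold lower in LMP1 than in Ctr (log2 -7.00 ± 1.27, called) and 81.7-fold higher in Lung-LMP1 than in LMP1 (log2 6.35 ± 1.24, called). Both ratios rest on the 2 and 3 LMP1 counts, at or under the floor, so their size is uncertain. Neither difference was called when either LMP1 library was left out. Lung-LMP1 was 5.34-fold above Lung-Ctr without overlap (log2 2.41 ± 0.94, or 4.06 without Lung-Ctr replicate 1, not called), and Lung-Ctr 8.31-fold below Ctr (log2 -3.06 ± 0.97, not called).

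Complement C3 and the protease inhibitor Slpi were present at moderate levels in every tumour library. C3 had 114, 201 and 82.5 CPM in Lung-LMP1, 282 and 344 CPM in LMP1, 69.8 and 29.8 CPM in Lung-Ctr and 466, 173 and 71.5 CPM in Ctr. LMP1 overlapped Ctr, in which replicate 1 was the highest of all tumour libraries, and the log2 fold change was 0.34 ± 0.70. Lung-LMP1 lay below LMP1 and above Lung-Ctr without overlap (log2 -1.19 ± 0.70 and 1.40 ± 0.75), and Lung-Ctr lay below Ctr (log2 -2.26 ± 0.78); none of the 4 was called. Slpi had 40.7, 28.0 and 59.1 CPM in Lung-LMP1, 69.3 and 87.1 CPM in LMP1, 84.6 and 40.9 CPM in Lung-Ctr and 63.7, 17.7 and 30.6 CPM in Ctr, a range of less than 5-fold over the 10 libraries. LMP1 lay just above Ctr (log2 1.01 ± 0.53) and above Lung-LMP1 (log2 of Lung-LMP1 against LMP1 -0.84 ± 0.53), and neither was called.

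**Figure D2:**
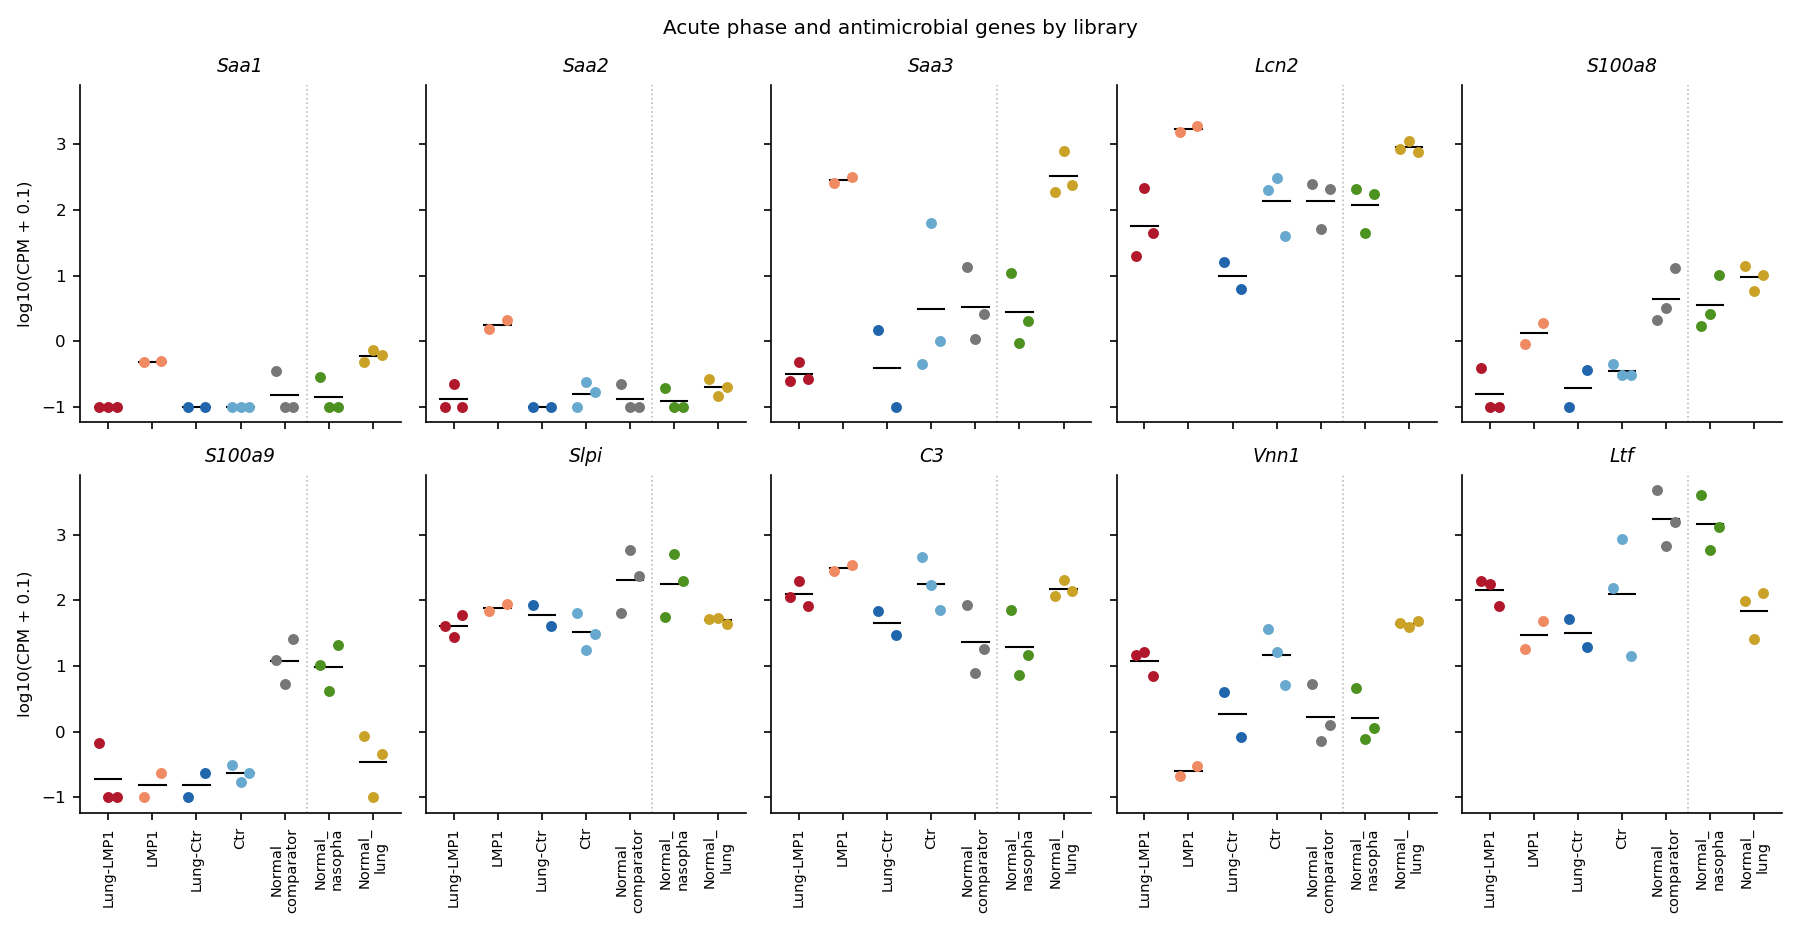
Level of each of the 10 genes (vertical axis, log10(CPM + 0.1)) in every library (points) by group, with the mean of the log values as a line; the dotted line parts the tumour tables from the table of normal tissues, which were scaled apart. Saa3 reached 257 and 320.4 CPM in LMP1 and at most 63.2 CPM in the other tumour libraries, while Vnn1 was lowest in LMP1.

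Per kilobase of transcript, the order of the 10 genes differed between tumour groups. In Lung-LMP1 Lcn2 led with a mean of 102 CPM per kb, ahead of Ltf (55.6) and Slpi (48.6), 3 genes whose ranges overlapped. That lead rested on replicate 2, where Lcn2 reached 236 CPM per kb; Ltf led in replicate 1 (72.8, with Lcn2 at 21.4) and Slpi in replicate 3 (67.4, with Lcn2 at 48.4). In LMP1 Lcn2 averaged 1892 CPM per kb, ahead of Saa3 (520.1) and Slpi (89.3). Lung-Ctr was led by Slpi (71.6 CPM per kb), with Ltf (13.2) and Lcn2 (12.1) next. In Ctr Lcn2 (199.8 CPM per kb) and Ltf (125) led with overlapping ranges. The place of Ltf rested on replicate 2, where it reached 314.6 CPM per kb. In replicate 1 Ltf (56.1) was below C3 (90.7) and Slpi (72.7), and in replicate 3 (5.23) below Slpi (35.0) and C3 (13.9). Summed over the 10 genes, 0.0265% to 0.0618% of all counts fell to them in Lung-LMP1 libraries, against 0.221% and 0.279% in those of LMP1. The sum was 0.00984% and 0.0228% in Lung-Ctr and 0.0165% to 0.152% in Ctr.

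Counted together, the members did not move one way. Of the 10, 8 passed the filter on low counts in the tumour fit, and Saa1 and S100a9 did not. Saa2 and S100a8 passed it only through their LMP1 counts (26 and 30 for Saa2, 15 and 27 for S100a8). In comparisons with LMP1 their direction was thus set by the filter. The counts and medians below include them and describe genes chosen with these values known, so they are not a test of the members as a set. In LMP1 against Ctr, 1 member was called higher (Saa2) and 1 lower (Vnn1), where 16.4% of the 13460 genes tested were called (7.36% higher, 9.06% lower). Without overlap 5 members lay higher and 1 lower, against 56.3% of all genes (30.6% higher, 25.7% lower), and the median log2 fold change was 1.64, against -0.01 over all genes. The Saa2 call was lost with DESeq2, with no filter, with the replicate block, without Lung-LMP1 replicate 3 and when any of the 3 Ctr libraries was left out. Lcn2 was called higher without Lung-LMP1 replicate 2, and Ltf lower without Ctr replicate 3. With either LMP1 library left out, 0 members were called. In Lung-LMP1 against LMP1, Saa2, Saa3 and Lcn2 were called lower and Vnn1 higher, where 10.1% of genes were called (6.17% higher, 3.94% lower). All 8 members were without overlap, 2 higher and 6 lower, against 53.7% of genes (24.5% higher, 29.3% lower), with a median of -2.40 against 0.01 over all genes. DESeq2 called Lcn2 and Vnn1 there, leaving out Lung-LMP1 replicate 1 or 3 left Vnn1 alone, leaving out replicate 2 left Lcn2 and Vnn1, and with either LMP1 library left out 0 members were called. Without the filter, and with the replicate block, Vnn1 alone was called. Saa2 was also lost there without Ctr replicate 3, and Lcn2 without Ctr replicate 1. In Lung-LMP1 against Lung-Ctr 0 members were called, where edgeR called 0.0% of genes, 2296 genes had an unadjusted p under 0.05, and DESeq2 called 869 genes and 0 members; 4 members lay higher without overlap (Lcn2, C3, Vnn1 and Ltf), against 33.2% of genes (17.9% higher, 15.2% lower). In Lung-Ctr against Ctr 0 members were called, where edgeR called 0.0% of genes, 717 had an unadjusted p under 0.05, and DESeq2 called 40 genes and 0 members; Lcn2, C3 and Vnn1 lay lower without overlap, against 13.9% of genes (6.89% higher, 7.04% lower). These comparisons share libraries, so their values stand side by side and are not independent.

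**Figure D3:**
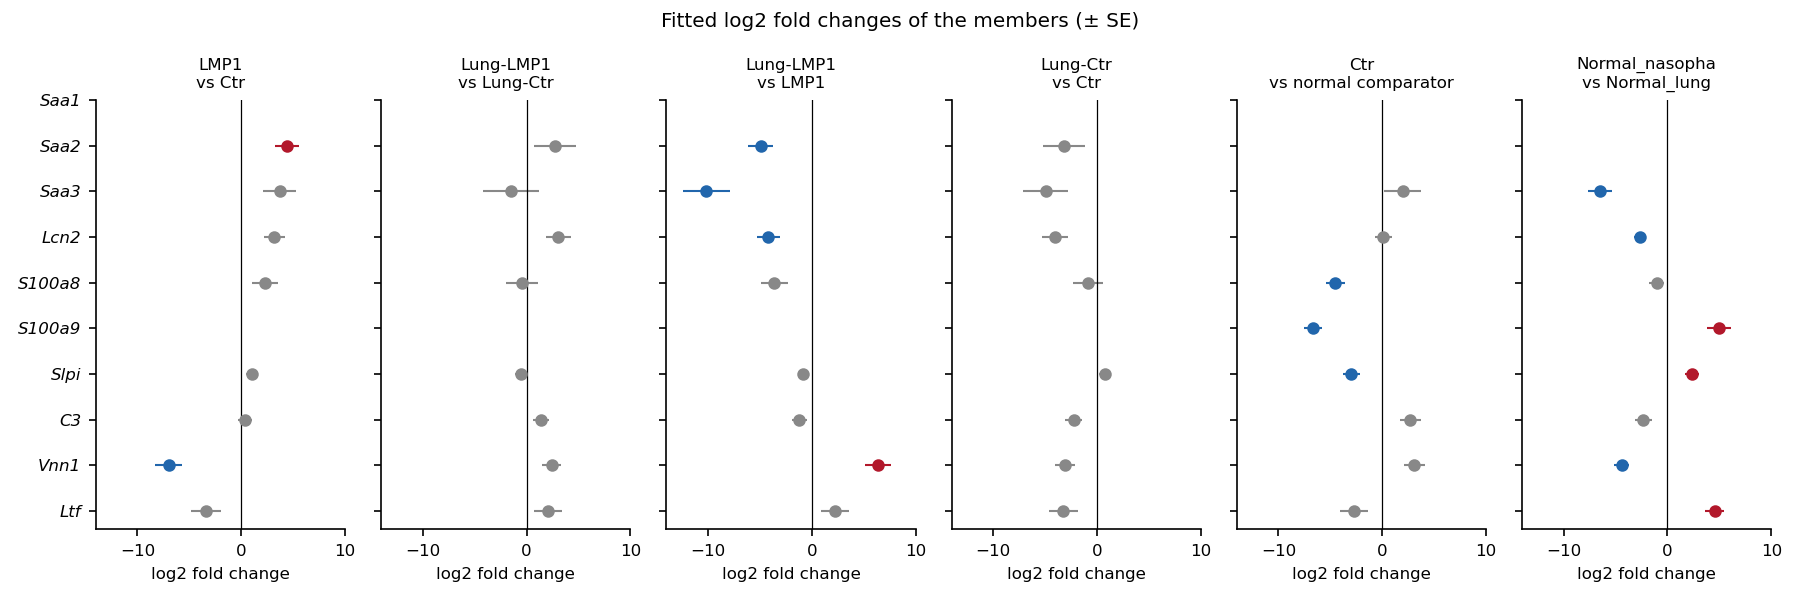
Log2 fold change (horizontal axis, first-named over second-named group) of each gene that passed the filter, with its standard error, in 6 comparisons; red marks genes called higher, blue genes called lower and grey genes not called. Saa3 lies at -10.16 and Vnn1 at 6.35 in Lung-LMP1 against LMP1.

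Summed neutrophil and epithelial markers were lower in LMP1 than in every other tumour library, and hepatocyte and ciliated cell markers higher. The macrophage, airway secretory, fibroblast, endothelial and alveolar sums did not separate LMP1 from every other tumour group. Endothelial markers summed to 0.816 to 1.26 CPM in LMP1 and 0.719 to 2.21 in Lung-LMP1, and alveolar markers to 65.2 to 81.0 in LMP1 and 46.6 to 94.9 in Lung-LMP1. Of 10 neutrophil markers, 9 have an entry in the tumour tables; they summed to 3.95 to 20.0 CPM in Lung-LMP1, 0.381 to 0.925 in LMP1, 2.23 to 11.6 in Lung-Ctr and 3.89 to 11.2 in Ctr. Csf3r, Mpo, Ngp and Retnlg were at 0 in both LMP1 libraries, where the leukocyte marker Ptprc had 1 count. Such zeros were not particular to LMP1: 4 of the 9 markers were at 0 in Lung-LMP1, 6 in Lung-Ctr and 3 in Ctr. Csf3r and Retnlg were at 0 in every tumour group. Most of the sum elsewhere was Cxcr2, a chemokine receptor, with 12.7 ± 8.32 CPM in Lung-LMP1 (SD, n = 3), 0.0602 ± 0.00825 in LMP1 (n = 2), 5.69 ± 6.47 in Lung-Ctr (n = 2) and 5.75 ± 3.20 in Ctr (n = 3). Of 8 hepatocyte markers, Alb, Apob and Ttr were at 0 in all 10 tumour libraries, and the 8 summed to 0.0719 to 1.14 CPM in Lung-LMP1, 1.78 to 2.01 in LMP1, 0.658 to 0.905 in Lung-Ctr and 0.0690 to 0.751 in Ctr. Macrophage markers summed to 11.9 to 19.7 CPM in Lung-LMP1, 8.16 to 10.6 in LMP1, 8.63 to 19.1 in Lung-Ctr and 11.3 to 39.4 in Ctr, and ciliated cell markers to 5.10 to 7.44 CPM in Lung-LMP1, 14.9 to 29.9 in LMP1, 2.96 to 6.13 in Lung-Ctr and 6.02 to 9.01 in Ctr. Airway secretory markers summed to 7.76 to 335 CPM in Lung-LMP1, 66.5 to 91.6 in LMP1, at most 28.6 in Lung-Ctr and 3.52 to 61.2 in Ctr. The 12 epithelial markers summed to 6161 to 6737 CPM in Lung-LMP1, 971 to 1469 in LMP1, 5529 to 6629 in Lung-Ctr and 3374 to 5458 in Ctr. Of 10 fibroblast markers, 2 were above the floor in Lung-LMP1, 8 in LMP1, 1 in Lung-Ctr and 7 in Ctr, with sums of 56.9 to 77.0 CPM in Lung-LMP1, 60.5 to 116 in LMP1, 68.8 to 100.1 in Lung-Ctr and 59.8 to 169.6 in Ctr. Ctr replicate 2, the Ctr library with high Saa3 and Ltf, had the highest fibroblast sum and the lowest epithelial sum of the Ctr libraries. The part of these cell types in the levels of the 10 genes was not tested, and in bulk RNA fewer cells of a type cannot be told apart from less RNA per cell.

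Of 12 transcription regulators of the acute phase response, 5 rose in LMP1 against Ctr and 0 fell, where 7.36% of all genes tested were called higher and 9.06% lower. With either LMP1 library left out Cebpb alone was called, and with the replicate block Cebpb, Cebpd and Bcl3. Cebpb, of the C/EBP family whose letters were searched in the promoters above, had 213 and 231 CPM in LMP1, against 54.7, 51.7 and 52.2 CPM in Ctr, and rose by 2.02 ± 0.13 (log2, SE; edgeR adjusted p = 0.000408). Both LMP1 libraries lay above all 3 Ctr libraries. Cebpd, a second C/EBP gene, averaged 71.2 ± 1.14 CPM in LMP1 (SD, n = 2) and 10.9 ± 4.75 CPM in Ctr (n = 3) and rose by 2.66 ± 0.46 (edgeR adjusted p = 0.00987). Bcl3, a nuclear I-kappa-B protein that works with NF-kappa-B, averaged 73.1 ± 1.15 CPM in LMP1 and 26.5 ± 7.23 CPM in Ctr (edgeR adjusted p = 0.0133). Socs3, the feedback inhibitor of STAT3 signalling, and Rela, an NF-kappa-B subunit, were the remaining 2 of 5 regulators called higher among 12 tested, and were named after their values were seen: Socs3 averaged 188 ± 40.3 CPM in LMP1 and 51.9 ± 13.9 in Ctr (edgeR adjusted p = 0.0151), and Rela 126 ± 4.70 in LMP1 and 64.2 ± 0.848 in Ctr (edgeR adjusted p = 0.0188). Stat3 itself had a log2 fold change of 0.41 ± 0.15 and was not called (edgeR adjusted p = 0.101).

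Of the 12 regulators 5 fell in Lung-LMP1 against LMP1 and 0 rose, where 3.94% of all genes tested were called lower and 6.17% higher. With either LMP1 library left out Cebpb alone was called, without Lung-LMP1 replicate 1 or with the replicate block Cebpb and Cebpd, and without Lung-LMP1 replicate 3 Cebpb, Cebpd and Socs3. Cebpb had 82.1, 90.1 and 78.6 CPM in Lung-LMP1, against 213 and 231 CPM in LMP1, and fell by 1.37 on the log2 scale (edgeR adjusted p = 0.00182). Cebpd averaged 11.3 ± 5.57 CPM in Lung-LMP1 (SD, n = 3) and 71.2 ± 1.14 CPM in LMP1 (n = 2) (edgeR adjusted p = 0.0121), and Stat3 133 ± 11.7 CPM in Lung-LMP1 and 232 ± 4.26 CPM in LMP1 (edgeR adjusted p = 0.0195). Bcl3 and Socs3, named after their values were seen, were also called lower (edgeR adjusted p = 0.0268 and 0.0250). The change with LMP1 differed between libraries with and without the Lung prefix for Cebpb, with an interaction of -1.56 ± 0.18 on the log2 scale (edgeR adjusted p = 0.0195), and was not called for Cebpd (0.123), Socs3 (0.105), Stat3 (0.0869) or Bcl3 (0.317); over all genes tested 0.892% were called (0.81% higher, 0.0817% lower). That interaction was no longer called with the replicate block (adjusted p = 0.138), with either LMP1 library left out (adjusted p = 0.124 and 0.0837), or without Lung-LMP1 replicate 1 (0.0574) or 3 (0.0680), all by edgeR. In Lung-LMP1 against Lung-Ctr, Cebpb had a log2 fold change of 0.45 ± 0.13, not called (edgeR adjusted p = 0.156). The summed epithelial markers given above were lowest in the same 2 LMP1 libraries, and their part in the regulators was not tested.

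**Figure D4:**
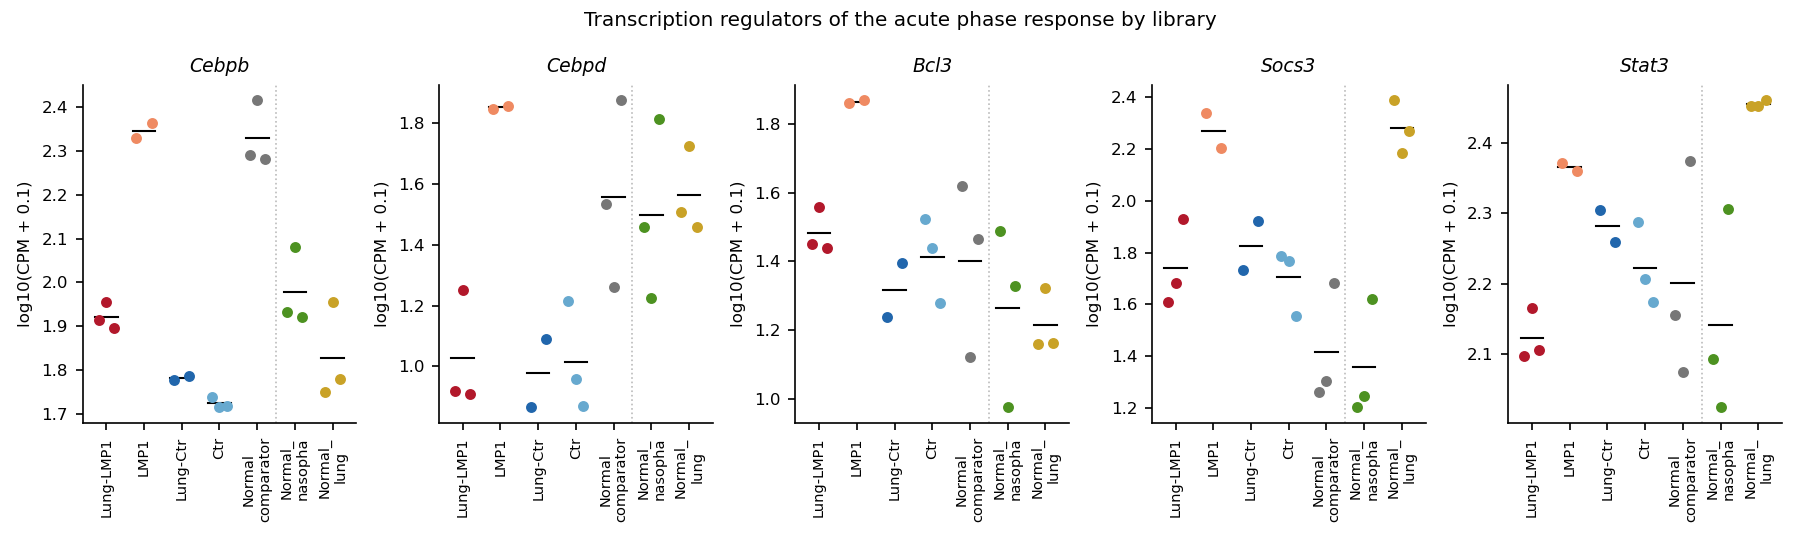
Level of 5 transcription regulators (vertical axis, log10(CPM + 0.1), a different range in each panel) in every library (points) by group, with the mean of the log values as a line; the dotted line parts tables that were scaled apart. Cebpb, Cebpd and Bcl3 are higher in both LMP1 libraries than in the 8 other tumour libraries.

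Over all 6 companion lists, regulators included, 65 of 105 genes were tested in the tumour fit, and 6 rose and 4 fell in LMP1 against Ctr, where 16.4% of all genes were called. Outside the regulators, 1 rose and 4 fell. C1ra, a serine protease of the first complement component, averaged 16.2 ± 0.654 CPM in LMP1 and 2.47 ± 1.81 CPM in Ctr (edgeR adjusted p = 0.0291) and was the 1 gene called of 10 complement genes tested. Of 18 inducers and receptors tested 2 fell: Il1a, the alarm cytokine interleukin 1 alpha, at 0.725 ± 0.563 CPM in LMP1 and 35.3 ± 46.0 in Ctr (edgeR adjusted p = 0.0271), and Il22ra1, the epithelial interleukin 22 receptor chain, at 0.816 ± 0.154 CPM in LMP1 and 19.1 ± 20.3 in Ctr (0.0329). S100a14 and S100a11, paralogs of the calprotectin genes, fell too, S100a14 to 2.68 ± 1.17 CPM in LMP1, against 135 ± 48.4 CPM in Ctr (edgeR adjusted p = 0.00711), and S100a11 to 197 ± 40.5 CPM in LMP1, against 530.4 ± 105 in Ctr (0.0146). Of the 6 acute phase and 12 antimicrobial genes tested 0 were called there by edgeR, with median log2 fold changes of 1.5 and -1.51, against -0.01 over all genes. Without LMP1 replicate 1 or replicate 2, 1 companion gene was called, Cebpb, at an edgeR adjusted p of 0.0114 and 0.00795.

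In Lung-LMP1 against LMP1, 2 of the 65 companion genes, regulators included, rose and 8 fell, where 10.1% of all genes were called. The 2 that rose were S100a11 and S100a14, with S100a11 at 1110.1 ± 267 CPM in Lung-LMP1 and 197 ± 40.5 CPM in LMP1 (edgeR adjusted p = 0.00391), and S100a14 at 238 ± 19.9 CPM in Lung-LMP1 and 2.68 ± 1.17 CPM in LMP1 (0.00608). C1ra fell to 0.678 ± 0.235 CPM in Lung-LMP1, against 16.2 ± 0.654 CPM in LMP1 (edgeR adjusted p = 0.00892). Il6st, the shared signalling receptor of the interleukin 6 family, and Osmr, the oncostatin M receptor, fell as well, Il6st to 95.6 ± 17.1 CPM in Lung-LMP1, against 198 ± 7.60 in LMP1 (edgeR adjusted p = 0.0201), and Osmr to 15.4 ± 4.26, against 49.6 ± 6.76 (0.0364). Without LMP1 replicate 1 or 2, 1 and 2 companion genes were called, without Lung-LMP1 replicate 3 there were 6, and without Ctr replicate 2 there were 16. For S100a14 the interaction was 6.35 ± 1.07 (edgeR adjusted p = 0.0407), and its call was lost with no filter (0.0630), with the replicate block (0.176) and when any LMP1 or Lung-LMP1 library, or Ctr replicate 1 or 3, was left out (0.0762 to 0.309). In Lung-LMP1 against Lung-Ctr and in Lung-Ctr against Ctr, 0 of 65 companion genes were called by edgeR, and DESeq2 called 4 and 0.

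Genes with a pattern most like Saa3, Lcn2 and C3 were sought over the 10 tumour libraries, by the root mean square difference of centred log2(CPM + 1) among 10158 genes with a mean of at least 5 CPM; these are descriptions of 10 libraries that share their groups. Nearest to Saa3 was Mgp, matrix Gla protein, at a difference of 0.55 log2 units, where the median over all genes was 3.25. Mgp averaged 0.205 ± 0.117 CPM in Lung-LMP1, 199 ± 98.5 in LMP1, 0.166 ± 0.137 in Lung-Ctr and 9.96 ± 16.9 in Ctr. Next came the transcription factor genes Prrx1 at 0.85 and Zeb2 at 0.87, and like Saa3 all 3 were high in Ctr replicate 2 among the Ctr libraries. The member nearest to Saa3 was Lcn2 at 1.81, and the farthest was Vnn1 at 4.39. Nearest to Lcn2 were Ntn1, Tbx3 and Pcolce at 1.21, 1.22 and 1.29, where the median over genes was 2.61. Nearest to C3 were Rasal1, Rassf4 and Atp2a3 at 0.46, 0.51 and 0.63, where the median was 1.21.

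**Figure D5:**
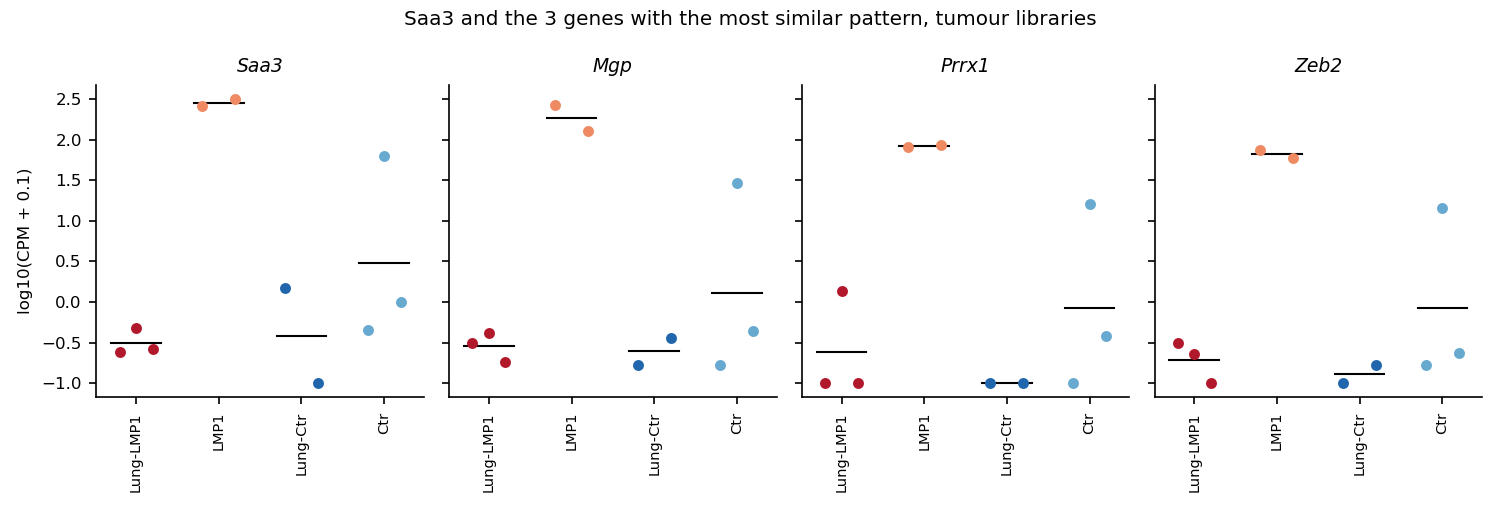
Level (vertical axis, log10(CPM + 0.1)) of Saa3 and of the 3 genes with the smallest difference in pattern, Mgp, Prrx1 and Zeb2, in the 10 tumour libraries (points), with the mean of the log values as a line. All 4 genes are highest in both LMP1 libraries and next highest in Ctr replicate 2.

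Calprotectin genes and Slpi were lower in Ctr tumours than in the normal comparator. S100a9 had 0.208, 0.0682 and 0.138 CPM in Ctr, against 12.3, 5.17 and 25.9 in the normal comparator, 105-fold lower in the mean (log2 -6.63 ± 0.86, called). S100a8 had 0.346, 0.205 and 0.207 CPM in Ctr, against 1.97, 3.16 and 12.8 in the normal comparator, 23.7-fold lower (log2 -4.52 ± 0.93, called). The Ctr counts were 3, 1 and 2 for S100a9 and 5, 3 and 3 for S100a8. These are at or near the floor, so the size of both fold changes is uncertain. Slpi had 63.7, 17.7 and 30.6 CPM in Ctr, against 65.3, 576 and 238 in the normal comparator, 7.85-fold lower (log2 -2.97 ± 0.84, called). In all 3 genes every Ctr library lay below every comparator library. Ltf had 154, 863 and 14.3 CPM in Ctr, against 4754, 683 and 1557 in the normal comparator; the mean was 6.78-fold lower in Ctr, with overlap and not called. Lcn2 differed by log2 0.12 ± 0.79 with overlap, and Saa3 by 1.96 ± 1.80, which turned to -3.12 without Ctr replicate 2; neither was called. C3 and Vnn1 were 6.43-fold and 8.34-fold higher in Ctr with overlap and not called by edgeR, whereas DESeq2 called both. Of 8 members tested 3 were called lower, where 22.4% of the 13034 genes were called (9.67% higher, 12.7% lower), and 3 were lower without overlap, against 46.1% (21.8% higher, 24.3% lower). Among these, S100a8 and S100a9 passed the filter on low counts only through the comparator, so their direction was set by the filter. Leaving out any 1 Ctr library left S100a9 alone, leaving out comparator replicate 2 or 3 left S100a8 and S100a9, and leaving out comparator replicate 1 added C3 and Vnn1. With the replicate block S100a9, C3 and Vnn1 were called. Summed epithelial markers were 3374 to 5458 CPM in Ctr and 7396 to 19392 CPM in the comparator, airway secretory markers 3.52 to 61.2 CPM in Ctr and 62.0 to 522 CPM in the comparator, alveolar markers 39.9 to 80.3 CPM in Ctr and 145 to 349 CPM in the comparator, and endothelial markers 1.24 to 1.30 CPM in Ctr and 3.44 to 7.14 CPM in the comparator, all 4 without overlap. The sums of the other 5 marker lists overlapped: macrophage markers were 11.3 to 39.4 CPM in Ctr and 23.9 to 293 CPM in the comparator, and neutrophil markers 3.89 to 11.2 CPM in Ctr and 1.78 to 20.3 CPM in the comparator, with Mpo, Ngp and Retnlg at 0 in the comparator; their part was not tested.

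Of 65 companion genes tested between Ctr and the comparator, 6 rose and 8 fell, where 9.67% of all genes were called higher and 12.7% lower. Of 15 antimicrobial genes 2 rose and 4 fell. Those that fell included Bpifa1, an airway surface protein, at 0.137 ± 0.180 CPM in Ctr and 237 ± 314 CPM in the comparator (edgeR adjusted p = 0.0143), Chil1, a chitinase-like protein (0.0170), and Wfdc18 (0.0170). Serpina3n, an acute phase protease inhibitor, fell to 0.0923 ± 0.160 CPM in Ctr, against 18.4 ± 8.37 CPM in the comparator (edgeR adjusted p = 0.0104), and Il1f9, the epithelial cytokine interleukin 36 gamma, to 1.89 ± 1.35, against 119 ± 67.7 (0.0101). The hydrogen peroxide enzyme Duox2 and its maturation factor Duoxa2 rose, Duox2 to 98.7 ± 153 CPM in Ctr, against 0.969 ± 0.477 CPM in the comparator (edgeR adjusted p = 0.0343), with an SD above its mean in Ctr. The receptors Tlr2 (0.0176), Il1r1 (0.0202) and Il10rb (0.0328) rose as well (edgeR adjusted p), while Cebpb fell to 52.9 ± 1.58 CPM in Ctr, against 216 ± 39.1 in the comparator (0.00887). Leaving out Ctr replicate 1, 2 or 3 left 5, 5 and 8 companion calls, and leaving out comparator replicate 3 left 6.

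Some of the 10 genes were higher in Normal_nasopha, some were higher in Normal_lung, and others were not called or not tested. Saa3 had 10.9, 0.843 and 1.92 CPM in Normal_nasopha, against 188, 793 and 240.2 CPM in Normal_lung, 89.3-fold lower in nasopharynx without overlap (log2 -6.48 ± 1.18, called). Lcn2 had 210.5, 43.8 and 173 CPM in Normal_nasopha, against 845, 1135 and 752 CPM in Normal_lung (log2 -2.68 ± 0.57, called), and Vnn1 had 4.59, 0.665 and 1.05 CPM in Normal_nasopha, against 45.9, 38.9 and 48.3 CPM in Normal_lung (log2 -4.40 ± 0.73, called). All nasopharynx libraries were below all lung libraries for these 3 genes. Ltf had 4014, 596 and 1315 CPM in Normal_nasopha, against 98.3, 25.8 and 129 CPM in Normal_lung, 23.4-fold higher in nasopharynx (log2 4.55 ± 0.92, called). S100a9 had 10.1, 4.13 and 20.6 CPM in Normal_nasopha, against 0.752, 0 and 0.363 CPM in Normal_lung, 31.2-fold higher in nasopharynx (log2 4.96 ± 1.11, called). Slpi had 55.4, 510.2 and 200.3 CPM in Normal_nasopha, against 52.7, 53.5 and 43.9 CPM in Normal_lung, 5.10-fold higher in nasopharynx (log2 2.35 ± 0.71, called), and neither gene overlapped between the tissues. C3 had 71.2, 7.10 and 14.6 CPM in Normal_nasopha, against 116, 206 and 139.5 CPM in Normal_lung, lower in nasopharynx without overlap and not called by edgeR, while S100a8 overlapped between the tissues.

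Of the 10 genes 8 were tested, Saa1 and Saa2 being too low, and 3 were called higher and 3 lower in nasopharynx, where 31.1% of the 15886 genes were called (15.4% higher, 15.6% lower); 7 of 8 were without overlap, 3 higher and 4 lower, against 50.5% (25.9% higher, 24.6% lower). S100a9 passed the filter on low counts only through Normal_nasopha, so its direction was set by the filter. Slpi was not called without Normal_nasopha replicate 2 or 3 or without any 1 Normal_lung library, and S100a9 was not called without Normal_lung replicate 3. Of 76 companion genes tested 9 rose and 25 fell in nasopharynx, where 15.4% of all genes were called higher and 15.6% lower. Complement genes fell in 7 of 9 cases, with a median log2 fold change of -4.66 against 0.13 over all genes, among them Hc, complement component C5, at 0.0748 ± 0.0505 CPM in Normal_nasopha and 16.9 ± 4.56 CPM in Normal_lung (edgeR adjusted p = 0.000261) and Serping1, the inhibitor of the first component (0.000703). Of 8 acute phase genes 4 fell, led by Hp, haptoglobin, at 4.41 ± 4.29 CPM in Normal_nasopha and 954 ± 368 CPM in Normal_lung (edgeR adjusted p = 0.00117). Of 19 antimicrobial genes 3 rose and 6 fell: Wfdc18 stood at 78.2 ± 25.7 CPM in Normal_nasopha and 0.185 ± 0.182 CPM in Normal_lung (edgeR adjusted p = 0.000402), and the lysozyme gene Lyz2 at 27.1 ± 16.4 CPM in Normal_nasopha and 2467 ± 589 CPM in Normal_lung (0.000922). Socs3 fell to 25.1 ± 14.5 CPM in Normal_nasopha, against 194 ± 46.7 CPM in Normal_lung (edgeR adjusted p = 0.00321), and Cebpb was not called (0.186). Summed epithelial markers were 6067 to 15149 CPM in Normal_nasopha and 1883 to 2059.7 CPM in Normal_lung, and endothelial markers 2.77 to 5.77 CPM in Normal_nasopha and 126 to 149 CPM in Normal_lung, both without overlap. Airway secretory markers (35.7 to 314 CPM in Normal_nasopha and 399 to 827 CPM in Normal_lung), ciliated markers (6.08 to 10.7 CPM in Normal_nasopha and 39.2 to 40.3 CPM in Normal_lung) and the alveolar markers given above did not overlap either. Neutrophil markers were 1.60 to 12.9 CPM in Normal_nasopha and 9.62 to 38.0 CPM in Normal_lung, and macrophage markers 21.1 to 255 CPM in Normal_nasopha and 14.6 to 123 CPM in Normal_lung, both with overlap. The part of these cell types in the differences was not tested.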

How the data were processed

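RNA-seq of 16 mouse organoid libraries in 6 groups was analysed. The values used are the raw gene-level read counts the authors deposited, and no other deposited value was used. Reads were aligned with STAR to mm10, and DESeq2 and DESeq were used, per the submitters' processing notes; neither counter nor annotation is given in the sources used here. All 13 columns that repeat between tables were identical.

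Gene counts were compared by edgeR 4.0.16 (R 4.3.3; filterByExpr, TMM, robust quasi-likelihood F-test, Benjamini-Hochberg over all genes tested, adjusted p under 0.05), with the 10 tumour libraries fitted together and the other 2 comparisons on 6 libraries each. "Called" means past that threshold. Tumour and normal tables use different gene identifiers and were not joined. Precision is set by 12535166 to 21737184 counts per library, with counting error only in intervals. Genes named are the 10 members, up to 3 called genes per list and direction by smallest adjusted p, and 3 genes of like pattern for Saa3, Lcn2 and C3; Socs3, Rela, Bcl3, Cxcr2, Ptprc and others were also named after their values were seen. The members, the 6 companion lists (105 genes), the 9 marker lists and the motifs were chosen with earlier results of these data known. The script was tested on simulated data. Alternatives were RLE factors, DESeq2 1.42.0, no low-count filter, leave-one-out, a replicate block, a fit of just the groups compared, all 13 libraries of the symbol tables, and levels by total count. Replicate numbers showed no sign of pairing libraries (correlations of same-numbered deviations -0.51 to 0.12 in tumours). Deviations from the mean of so few libraries cannot exclude pairing.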

Additional observations from a re-analysis of the deposited data

Results flagged for a closer look

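Vnn1 had log2 fold changes of opposite sign in the 2 comparisons with LMP1, of which the first was called and the second was not: -7.00 in LMP1 against Ctr, where both LMP1 libraries lay below all 3 Ctr libraries, and 2.41 in Lung-LMP1 against Lung-Ctr, where all 3 Lung-LMP1 libraries lay above both Lung-Ctr libraries. The difference between the 2 was not tested, because the gene was chosen with these values known. Vnn1 had 2 and 3 counts in the LMP1 libraries, at or under the floor, so the size of -7.00 is uncertain.

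For 2 companion genes the interaction itself passed in edgeR's quasi-likelihood test: the log2 fold change with LMP1 was lower by 1.56 in the Lung groups for Cebpb (interaction -1.56, adjusted p = 0.0195) and higher by 6.35 for S100a14 (adjusted p = 0.0407). Both LMP1 libraries hold the extreme values in each case, Cebpb highest and S100a14 lowest among the 10 tumour libraries. Neither call held with the replicate block (edgeR adjusted p = 0.138 for Cebpb and 0.176 for S100a14). Both were also lost with either LMP1 library left out and without Lung-LMP1 replicate 1 or 3.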

How the results depend on the processing

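Directions of called members and companion genes did not reverse under any alternative run, and all 380 levels by other scaling moved by less than the replicate spread. Fold changes that were not called changed sign 13 times, in 5 members. Saa3 did so in Ctr against the comparator (-3.12 without Ctr replicate 2 and -0.96 with the replicate block), in Lung-LMP1 against Lung-Ctr (4.87 without Lung-Ctr replicate 1) and in Lung-Ctr against Ctr (0.15 without Ctr replicate 2). S100a8 did so in Lung-LMP1 against Lung-Ctr (0.05 to 3.64, without Lung-LMP1 replicate 2 or 3 or Lung-Ctr replicate 2) and in Lung-Ctr against Ctr (0.08 without Lung-Ctr replicate 1). The other 5 were Lcn2 in Ctr against the comparator (-0.45 to -0.07, under 3 alternatives), C3 in LMP1 against Ctr (-0.09) and Slpi in Lung-LMP1 against Lung-Ctr (0.01). Of the alternatives for single companion genes 520 kept their call and 138 lost it, and of those for member fold changes 587 stayed within their spread and 56 moved. In LMP1 against Ctr the 10 companion calls became 18 with DESeq2, 4 with the replicate block and 1 to 15 with a library left out, and the 2 member calls became 3 with DESeq2, 3 with only the groups compared, 1 without the filter, 1 with the replicate block and 0 to 3 with a library left out. In Lung-LMP1 against LMP1 the 10 companion calls became 21 with DESeq2, 5 with the replicate block, 20 with only the groups compared and 1 to 16 with a library left out, and the 4 member calls became 2 with DESeq2, 5 with only the groups compared, 1 without the filter, 1 with the replicate block and 0 to 4 with a library left out. In Lung-LMP1 against Lung-Ctr 0 companion calls became 4 with DESeq2. The 2 interaction calls became 12 with DESeq2, 0 with the replicate block and 0 to 4 with a library left out. In Ctr against the comparator the 14 companion calls became 24 with DESeq2, 27 with all 13 libraries and 5 to 20 with a library left out, and the 3 member calls became 5 with DESeq2, 5 with all 13 libraries and 1 to 5 with a library left out. In Normal_nasopha against Normal_lung, 34 companion and 6 member calls ranged from 24 to 37 and from 4 to 8 with a library left out. The cause was not tested, except that leaving out a library lowers the number of samples. The labels do not say whether the same replicate numbers pair the libraries, and groups this small cannot settle it. Whether calls lost with the block are weaker effects was not tested. Where LMP1 or Lung-Ctr keeps 1 library, that library is assumed to vary like the other groups. Levels at or under 3 counts, as for Saa1, Saa2 and S100a9 in most tumours, set the limit of depth.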
